A study of Mus musculus with 8 samples.

Results

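Parthenogenetic mouse embryonic stem (ES) cells were compared with normal mouse ES cells on 4 of the 8 bead arrays of the series, 2 per group. The arrays were chosen by their sample titles alone. Normal ES cells, labelled as coming from mouse embryo, hold a maternal and a paternal genome. Parthenogenetic ES cells, labelled as coming from mouse oocytes, derive from eggs activated without sperm, so both of their chromosome sets are maternal. All cells came from B6D2F1 hybrid mice. The other 4 arrays, 2 per group, hold genetically modified parthenogenetic lines labelled for Igf2 overexpression and for reduced H19 expression. They entered this comparison through the normalization, the shared estimate of the spread, and the mean brightness by which probes and list members were picked. The number of independent lines per group, the sex of the normal line, its passage and any feeder layer are not stated in the labels. The study design speaks of biological replication without naming separate cultures, so the p-values measure only the spread between these arrays, and 2 arrays per group limit the precision.

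Genomic imprinting leaves some genes active only on the copy inherited from one parent. Methylation laid down in the egg or the sperm at imprinting control regions is kept through later cell divisions and sets which copy is read. A cell with no paternal genome has no active copy of a paternally expressed gene and a pair of active copies of a maternally expressed one. ES cells keep many imprints, although imprints can drift in culture.

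Mest, Snrpn and Peg3 are paternally expressed genes whose promoters are known to be methylated on the maternal copy. Their promoter windows are shown because these genes had the largest falls among named genes and fell together. Each window runs from 250 bases before to 50 bases after a RefSeq start (GRCm38.p6), written 5′ to 3′ along the gene. In the Mest window, chr6:30737800-30738099 on the plus strand, and the Peg3 window, chr7:6730370-6730669 on the minus strand, capitals mark the CG dinucleotides, the bases at which mammalian DNA is methylated. In the Snrpn windows, chr7:60450128-60450427 and chr7:60005150-60005449 on the minus strand, capitals mark ACGCATGCGT, a palindrome that reads the same on both strands.
Mest: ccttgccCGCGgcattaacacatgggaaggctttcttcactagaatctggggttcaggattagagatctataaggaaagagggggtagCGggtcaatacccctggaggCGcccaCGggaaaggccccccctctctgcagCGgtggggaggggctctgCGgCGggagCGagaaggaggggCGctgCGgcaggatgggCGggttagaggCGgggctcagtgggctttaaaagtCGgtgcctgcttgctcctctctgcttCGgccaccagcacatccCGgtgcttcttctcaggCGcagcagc
Peg3: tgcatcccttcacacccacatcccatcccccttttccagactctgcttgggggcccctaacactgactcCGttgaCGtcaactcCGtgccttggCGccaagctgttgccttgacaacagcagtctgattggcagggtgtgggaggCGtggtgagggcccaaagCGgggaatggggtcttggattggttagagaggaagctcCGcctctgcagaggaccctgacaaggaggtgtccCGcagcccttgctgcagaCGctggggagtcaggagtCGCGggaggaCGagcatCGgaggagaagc
Snrpn, upstream start: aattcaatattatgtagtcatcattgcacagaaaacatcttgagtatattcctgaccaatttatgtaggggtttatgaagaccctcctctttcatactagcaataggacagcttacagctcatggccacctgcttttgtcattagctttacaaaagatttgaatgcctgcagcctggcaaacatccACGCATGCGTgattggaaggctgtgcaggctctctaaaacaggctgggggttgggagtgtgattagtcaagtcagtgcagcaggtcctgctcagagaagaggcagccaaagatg
Snrpn, downstream start: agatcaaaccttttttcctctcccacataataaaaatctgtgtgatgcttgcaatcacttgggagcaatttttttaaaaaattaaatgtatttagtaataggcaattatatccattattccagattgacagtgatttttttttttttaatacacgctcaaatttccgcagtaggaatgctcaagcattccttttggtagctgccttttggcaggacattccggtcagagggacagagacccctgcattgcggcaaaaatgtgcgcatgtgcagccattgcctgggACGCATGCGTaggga

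The Mest window shown held 17 CG dinucleotides, the most among 3 Mest windows that held 8 to 17, and the single Peg3 window held 13, against a median of 7 over 32851 RefSeq promoter windows. As many as in the Mest window shown stood in 31.4% of all windows, and as many as in Peg3 in 37.9%. The Snrpn windows shown held 2 and 7. The palindrome was picked as the longest self-complementary run shared by all 4 Snrpn windows, so its presence in them was fixed by that choice. It stood in 35 of all windows (0.107%), the Snrpn windows included. It is a match of letters only, and no array probe measured methylation or binding there. The files do not say which start each probe reads.

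The 4 arrays had between 12109 and 12711 detected probes of 25697, a probe being detected where its deposited detection p was under 0.05. Median intensities before normalization lay between 175.39 and 196.67 units. The normal arrays stood apart from each other. They differed by at least 2-fold on 986 of the 12561 probes tested, whereas the parthenogenetic arrays did so on 20. Normal replicate 1 was that far from the parthenogenetic arrays on 50 and 80 probes, and normal replicate 2 on 963 and 946. The values on each normal array are therefore given beside the results. Both groups carried the ES cell markers: all 16 tested genes of the core pluripotency list, among them Pou5f1 and Nanog, were detected on all 4 arrays. Fibroblast markers were present too, with all 27 tested genes detected on all 4 arrays. Their mean was 11.92 on normal replicate 1, 10.51 on normal replicate 2, and 11.88 and 11.89 on the parthenogenetic arrays, as log2 intensity. In RNA from whole cultures, fewer cells of a type and less RNA per cell cannot be told apart.

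The comparison asks which transcripts differ where the paternal genome is missing. Of the 12561 probes, 13 passed the threshold of 0.05 after Benjamini-Hochberg adjustment in limma (0.103%), 11 lower (0.0876%) and 2 higher (0.0159%) in parthenogenetic ES cells. Taking the brightest probe of each of 8584 named genes, 5 genes passed (0.0582%), of which 4 fell (0.0466%) and 1 rose (0.0116%). The genes that fell were the paternally expressed Mest, Snrpn and Peg3 and the Y-linked Eif2s3y, and the gene that rose was Cdhr1. At an unadjusted p under 0.05 there were 1405 probes (11.2%). The model shared 1 estimate of each probe's spread between all groups. Fitted to these 2 groups alone, with 2 residual degrees of freedom, limma called 1 probe, that of Snrpn (0.00796% of probes, adjusted p = 0.0495). With a variance for each group it called 9 (0.0717%).

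Mest, which encodes a protein of the alpha/beta hydrolase fold family, showed the largest fall. The log2 intensity of its brightest probe was 10.69 and 11.75 on the normal arrays and 6.29 and 6.35 on the parthenogenetic arrays. The unnormalized intensities were 1947 and 3522 units against 162.68 and 173.8 units. Both normal arrays were high, both parthenogenetic arrays were in the background range, and the groups were far from overlapping. Since the probe was not detected in parthenogenetic ES cells, its level there has only an upper bound, set by the lowest detected probe of each array. Against that bound Mest was at least 25.9-fold lower (limma adjusted p = 0.00316). The bound was at least 17.9-fold against normal replicate 1 and at least 37.5-fold against normal replicate 2.

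Both further Mest probes moved the same way. One stood at 9.60 and 10.61 in normal and 6.15 and 6.05 in parthenogenetic ES cells, at least 11.9-fold lower (limma adjusted p = 0.00711). The other stood at 8.52 and 9.60 against 5.81 and 5.65, at least 5.78-fold lower (limma adjusted p = 0.0209). Neither was detected on a parthenogenetic array, and on all 3 probes normal replicate 2 was the brighter normal array. The brightest probe missed the threshold without parthenogenetic replicate 1 (adjusted p = 0.0865) or replicate 2 (adjusted p = 0.0812), and in the fit of both groups alone (adjusted p = 0.179).

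Snrpn encodes SmN, a core protein of spliceosomal particles, and lies in the region deleted in Prader-Willi syndrome. Its brighter probe read 13.14 and 13.38 on the normal arrays and 9.16 and 9.24 on the parthenogenetic arrays as log2 intensity. Snrpn thus fell by 4.06 on the log2 scale (SE 0.13, limma adjusted p = 1.72e-04), with a difference of -3.94 from normal replicate 1 and of -4.18 from normal replicate 2. Unlike Mest, this probe stayed detected on both parthenogenetic arrays, at 667.92 and 695.86 units before normalization against 9757 and 11090 units in normal ES cells. The dimmer Snrpn probe stood at 8.90 and 9.72 in normal ES cells and was not detected in parthenogenetic ones, where it read 5.64 and 5.61. It was at least 6.89-fold lower (limma adjusted p = 0.00400). Each probe separated the groups on all 4 arrays.

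Peg3 encodes a zinc finger protein. It read 8.89 and 9.29 in normal ES cells and 5.35 and 5.42 in parthenogenetic ES cells, where it was not detected. The normal arrays were close to each other and well above both parthenogenetic arrays. Peg3 was at least 5.91-fold lower (limma adjusted p = 6.12e-04), with bounds of 5.15-fold and 6.79-fold against normal replicates 1 and 2. In the fit of both groups alone its adjusted p was 0.0792.

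Impact and Grb10 complete the markers chosen for this comparison, and neither passed the threshold. The markers were chosen as imprinted genes that differ between the groups, so a difference in them is description only. Impact, a paternally expressed regulator of the translational stress kinase GCN2, read 12.85 and 12.63 in normal and 11.91 and 11.99 in parthenogenetic ES cells. The difference was -0.79 on the log2 scale (SE 0.12, limma adjusted p = 0.117), with no overlap between groups. The parthenogenetic arrays kept a bright signal for this gene, in contrast to Mest and Peg3. Grb10, an adaptor that dampens insulin and IGF receptor signalling and is maternally expressed in most tissues, read 13.50 and 13.40 against 14.07 and 14.02. Its difference was 0.60 (SE 0.11, limma adjusted p = 0.192), 0.55 above normal replicate 1 and 0.65 above normal replicate 2. Grb10 was the marker that stood higher in the cells with 2 maternal genomes.

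**Figure D1:**
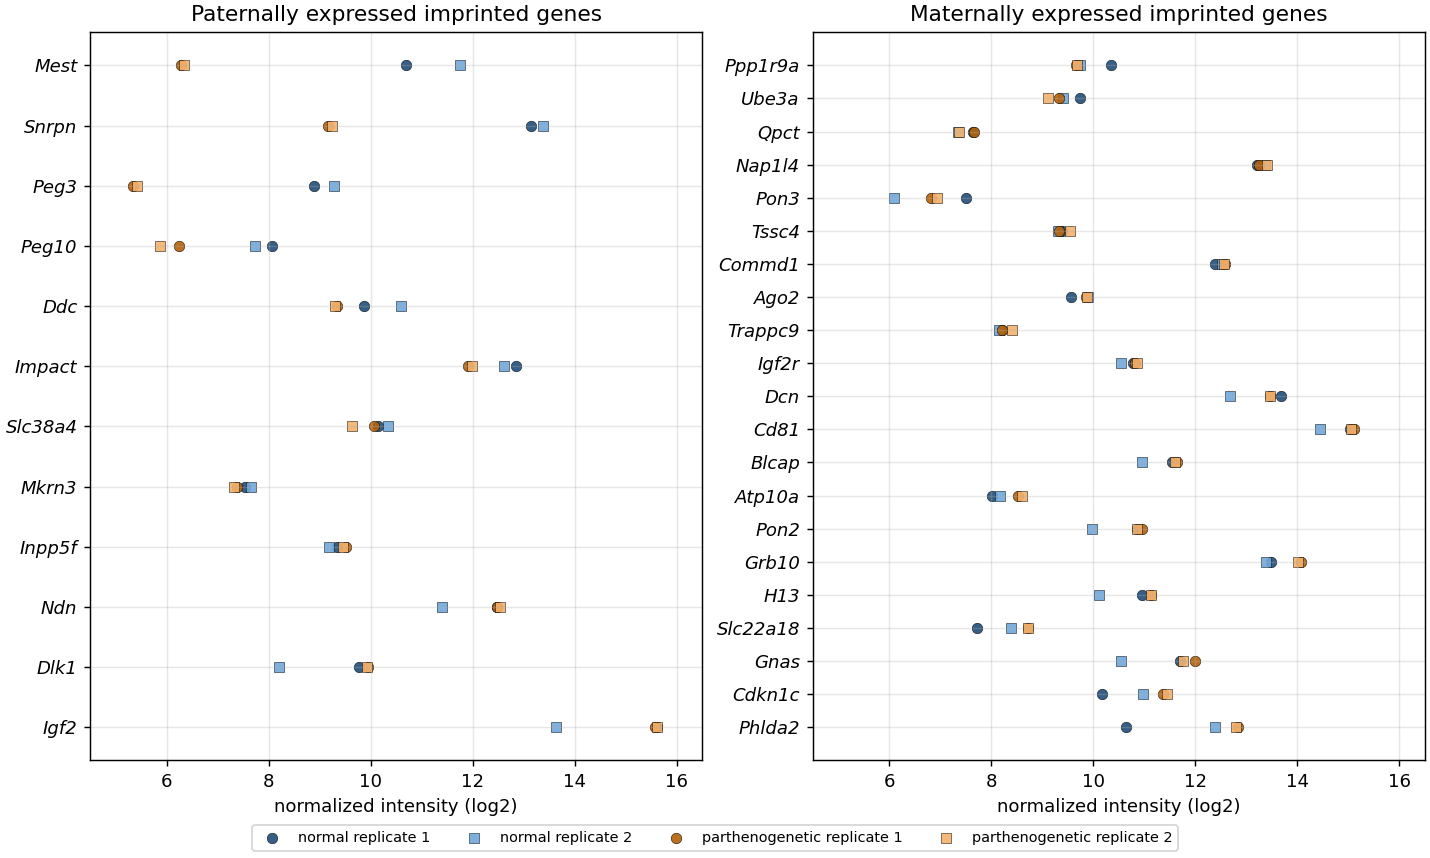
Log2 normalized intensity (horizontal axis) of each tested paternally expressed gene (left) and maternally expressed gene (right) on the normal arrays (blue) and the parthenogenetic arrays (orange), 1 point per array, ordered by the difference between group means. Mest, Snrpn, Peg3 and Peg10 have both orange points far to the left of both blue points, whereas Igf2, Dlk1 and Ndn have only normal replicate 2 set apart.

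Of the 35 paternally expressed genes listed, 13 had a named probe and 12 passed the detection filter. Mest, Peg3 and Peg10 entered it through the normal arrays alone, so the filter itself favoured a lower value in parthenogenetic ES cells for them. Of the 12, 3 passed the threshold as lower and 0 as higher, where 0.0466% and 0.0116% of all genes tested did. Apart from the threshold, 8 were lower on both parthenogenetic arrays than on both normal arrays, where 18.7% of all genes tested were. Mest, Snrpn, Peg3 and Impact are among these 8. As markers they were chosen because they differ between the groups, so these counts and the list's median are partly fixed by that choice. The median difference was -0.59, beside -0.01 over all genes. It was -0.43 against normal replicate 1 and -0.58 against normal replicate 2.

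Peg10, a retrotransposon-derived gene needed for the placenta, came nearest to the threshold among the others. It read 8.07 and 7.73 in normal ES cells and 6.24 and 5.88 in parthenogenetic ES cells, where it was not detected. It was at least 2.59-fold lower (limma adjusted p = 0.0828). Ddc, the aromatic amino acid decarboxylase, read 9.88 and 10.59 against 9.34 and 9.30, a difference of -0.92 (limma adjusted p = 0.275). For both genes the groups did not overlap. Slc38a4, an amino acid transporter gene, read 10.15 and 10.34 against 10.06 and 9.63 (limma adjusted p = 0.444). Mkrn3, a ring finger gene of the same region as Snrpn, read 7.55 and 7.66 against 7.39 and 7.32 (limma adjusted p = 0.583). These differences, -0.40 and -0.25, were small next to that of Snrpn.

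Igf2, Ndn and Dlk1 set the normal arrays apart rather than the groups. The growth factor gene Igf2 read 15.62 on normal replicate 1, 13.63 on normal replicate 2, and 15.58 and 15.62 on the parthenogenetic arrays. Ndn, a MAGE family gene of the Prader-Willi region, read 12.48 and 11.41 in normal and 12.47 and 12.53 in parthenogenetic ES cells. Dlk1, a Notch ligand-like gene, read 9.76 and 8.21 against 9.96 and 9.92. For these genes the parthenogenetic mean differed from normal replicate 1 by -0.02, 0.02 and 0.18 on the log2 scale and stood 1.97, 1.10 and 1.73 above normal replicate 2, the array with the lower fibroblast markers. None passed the threshold (limma adjusted p = 0.518, 0.508 and 0.471). The part of fibroblast RNA in these values was not tested. Igf2 reached 54664 units on normal replicate 1, where the brightest probe of the array reached 67553 units, so the probe had little room above that level. Inpp5f, an inositol phosphatase gene, read 9.34 and 9.18 against 9.52 and 9.46 (limma adjusted p = 0.475).

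Maternally expressed genes stood slightly higher in parthenogenetic ES cells, with no member past the threshold. Of 42 listed, 24 had a named probe and 21 were tested. Of these, 19 were higher by group mean, where 4138 of all 8584 genes were. Above both normal arrays on both parthenogenetic arrays were 11, where 18% of all genes were. Grb10, a marker chosen because it differs between the groups, is among the 11. The median difference was 0.29, 0.09 against normal replicate 1 and 0.38 against normal replicate 2. The largest differences were those of Phlda2 and Cdkn1c, at 1.30 and 0.84, in the cluster on distal chromosome 7. Phlda2, which restrains placental growth, read 10.64 and 12.40 in normal and 12.84 and 12.80 in parthenogenetic ES cells. Cdkn1c, the cell cycle inhibitor p57, read 10.17 and 10.97 against 11.38 and 11.44. Slc22a18, a transporter gene, read 7.72 and 8.39 against 8.73 and 8.73. All 3 were lowest on normal replicate 1, so their difference was larger against that array (2.18, 1.24 and 1.01) than against normal replicate 2 (0.42, 0.44 and 0.33). This is opposite to the fibroblast markers, which were lowest on normal replicate 2. The adjusted p from limma was 0.431 for Phlda2, 0.350 for Cdkn1c and 0.378 for Slc22a18.

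Other genes of that chromosome 7 cluster moved less. Cd81, a tetraspanin gene, read 15.04 and 14.46 against 15.11 and 15.06, the histone chaperone family gene Nap1l4 read 13.21 and 13.37 against 13.26 and 13.41, and Tssc4 read 9.39 and 9.32 against 9.33 and 9.54. Elsewhere, Gnas, the stimulatory G protein gene, read 11.71 and 10.54 against 11.99 and 11.76 (limma adjusted p = 0.470). H13, a signal peptide peptidase gene, read 10.95 and 10.11 against 11.14 and 11.14 (limma adjusted p = 0.446). In both, normal replicate 2 was the low array. The receptor gene Igf2r, which clears IGF2, read 10.78 and 10.54 against 10.82 and 10.87 (limma adjusted p = 0.543). Dcn, a matrix proteoglycan gene that is also on the fibroblast list, read 13.69 and 12.68 against 13.48 and 13.47. Only Ppp1r9a and Ube3a were lower on both parthenogenetic arrays than on both normal arrays. Ube3a, the ubiquitin ligase gene of Angelman syndrome, which is imprinted in neurons, read 9.75 and 9.41 against 9.34 and 9.12 (limma adjusted p = 0.471).

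**Figure D2:**
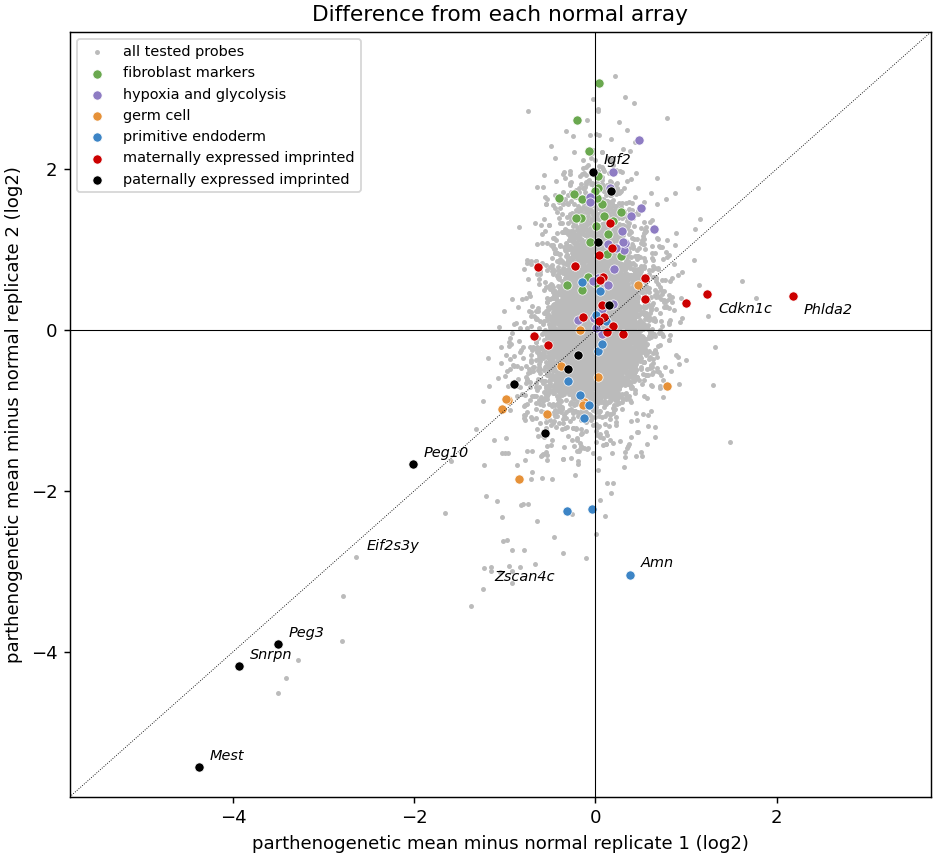
For each of the 12561 tested probes, the mean of the parthenogenetic arrays minus normal replicate 1 (horizontal axis, log2) and minus normal replicate 2 (vertical axis, log2), with 6 gene lists coloured. Mest, Snrpn, Peg3, Peg10 and Eif2s3y lie near the dotted line of equal difference, fibroblast and hypoxia genes spread upward at small horizontal values, and Phlda2 and Cdkn1c lie to the right.

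The fourth gene that fell was Eif2s3y, the Y-linked copy of a subunit of translation initiation factor eIF2. It read 10.78 and 10.96 in normal ES cells and 8.16 and 8.12 in parthenogenetic ES cells. Eif2s3y fell by 2.73 on the log2 scale (SE 0.12, limma adjusted p = 6.12e-04). The probe stayed detected on the parthenogenetic arrays. The other Y-linked gene tested, the histone demethylase family gene Uty, read 7.73 and 8.02 against 7.16 and 7.21 (limma adjusted p = 0.276) and was also detected on all 4 arrays. Without overlap, both Y-linked genes were lower in the parthenogenetic group. Cells whose chromosome sets are all maternal hold no Y chromosome, which comes with the sperm. What gave the remaining signal of these probes on the parthenogenetic arrays was not tested. The X-linked partner Eif2s3x read 11.96 and 12.10 against 11.53 and 11.70 (limma adjusted p = 0.376). Another partner, the RNA helicase gene Ddx3x, read 12.68 and 12.72 against 12.25 and 12.18 (limma adjusted p = 0.320). Xist, the RNA that silences an X chromosome, was near background: 7.24 and 6.21 against 6.92 and 7.14 (limma adjusted p = 0.690), and it was not detected on normal replicate 2.

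Over the X chromosome, 91 of 278 genes tested were lower on both parthenogenetic arrays than on both normal arrays (32.7%), and 30 were higher (10.8%). On the autosomes the shares were 18.2% in each direction. The shift was small, with a median of -0.14 over X-linked genes against normal replicate 1 and -0.04 against normal replicate 2, beside 0.01 and -0.05 on the autosomes. Against normal replicate 2 the median of the X chromosome was therefore not below that of the autosomes. No X-linked gene passed the threshold in limma, and 1, Xlr4a, was at least 2-fold lower than on both normal arrays.

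**Figure D3:**
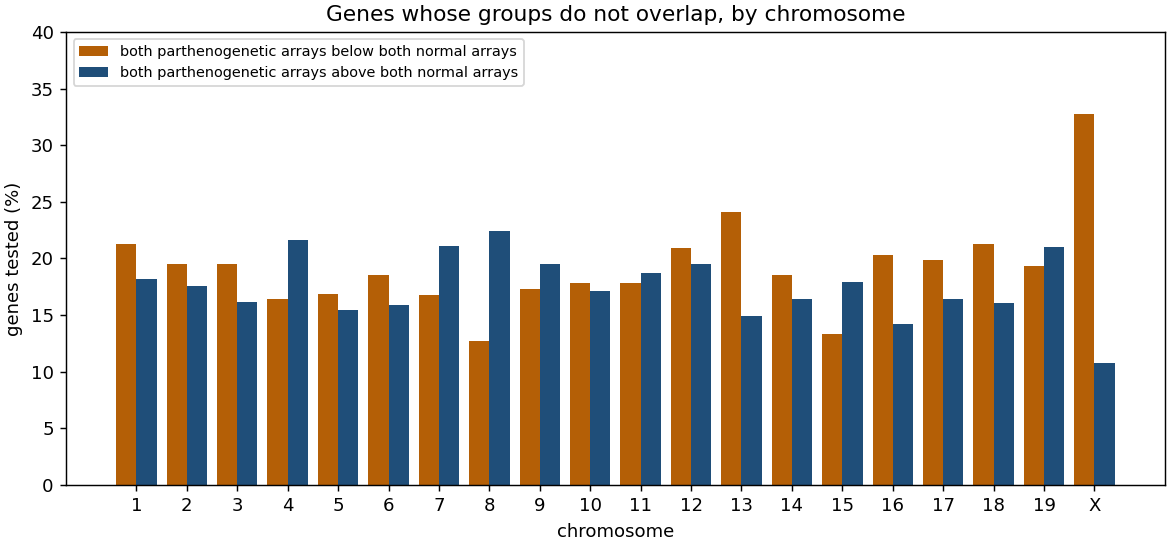
Share of genes tested on each chromosome (vertical axis, percent) whose parthenogenetic arrays both lie below (orange) or both above (blue) the normal arrays. The X chromosome has 32.7% below and 10.8% above, next to 18.2% each way over the autosomes.

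Counting by size, 22 probes were at least 2-fold lower on both parthenogenetic arrays than on both normal arrays (0.175%), and 2 were at least 2-fold higher (0.0159%). In genes this made 10 lower (0.116%) and 1 higher (0.0116%). Beside the 5 genes already described, the lower ones were Xlr4a, Zscan4c, Smtnl1 and 2 with clone or model names, BC055324 and Gm428, named after their values were seen. Rpp14 and Pramel37 came next by the gap between the groups. Zscan4c, a gene switched on in early cleavage embryos and in rare ES cells, read 9.53 and 11.51 in normal and 8.44 and 8.15 in parthenogenetic ES cells (limma adjusted p = 0.283). Pramel37, of a family expressed in preimplantation embryos, read 8.65 and 10.25 against 7.55 and 7.71 (limma adjusted p = 0.283). In both, normal replicate 2 was far above normal replicate 1. Rpp14, a ribonuclease P subunit gene, was even within groups at 10.50 and 10.48 against 9.45 and 9.51, a difference of -1.01 (limma adjusted p = 0.0538). Smtnl1, a smoothelin-like gene, read 7.08 and 8.37 in normal ES cells and was not detected in parthenogenetic ES cells, at 6.02 and 6.07, at least 2.30-fold lower (limma adjusted p = 0.235).

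Cdhr1, a cadherin gene known for its role in photoreceptors, was the named gene that rose. It read 7.13 and 6.98 in normal and 8.34 and 8.13 in parthenogenetic ES cells, a rise of 1.18 (SE 0.12, limma adjusted p = 0.0392). The rise was 1.10 against normal replicate 1 and 1.25 against normal replicate 2. It was past the threshold in 4 of 19 other settings. It missed without parthenogenetic replicate 1 (adjusted p = 0.492) or replicate 2 (adjusted p = 0.254), and on leaving out any 1 of the 4 arrays of the modified lines (adjusted p = 0.166 to 0.180). In the fit of both groups alone its adjusted p was 0.876. The gene at least 2-fold above both normal arrays was the peptide transporter gene Slc15a2, at 6.73 and 6.09 against 7.97 and 7.75 (limma adjusted p = 0.117). Other genes had a wide gap above both normal arrays. The deubiquitinase family gene Otud7a differed by 0.88 from normal replicate 1 and by 1.70 from normal replicate 2, and the synapse organizer gene Cbln1 by 0.81 and 0.93. The angiopoietin receptor gene Tek differed by 0.69 and 0.75 and the alanine transaminase gene Gpt2 by 0.92 and 0.68, in the same order. Their limma adjusted p ran from 0.0828 for Cbln1 to 0.197 for Otud7a. The keratin gene Krt19 read 7.85 and 6.003 in normal ES cells and 8.56 and 8.72 in parthenogenetic ES cells (limma adjusted p = 0.378). Slc15a2, Cbln1 and Krt19 were not detected on normal replicate 2 and entered the filter through the parthenogenetic arrays alone. The filter itself thus favoured a higher value there for them, and their differences from normal replicate 2 rest on a background value.

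Of the 13 probes past the threshold, 5 have no gene name in the platform annotation. The largest of them, ILMN_1247156, read 9.64 and 10.55 in normal ES cells, was not detected in parthenogenetic ES cells and was at least 11.9-fold lower (limma adjusted p = 0.00558). ILMN_2755578 read 8.22 and 8.74, was likewise not detected in the parthenogenetic group and was at least 3.87-fold lower (limma adjusted p = 0.00280). One probe, ILMN_2854811, went the other way. It was not detected in normal ES cells and was at least 1.42-fold higher in parthenogenetic ES cells (limma adjusted p = 0.0441), with differences of 1.15 from normal replicate 1 and 1.38 from normal replicate 2.

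The number of calls depended on which normal array was used. Without normal replicate 1, limma called 5200 probes, 2580 lower (20.5%) and 2620 higher (20.9%). Without normal replicate 2 it called 123, 77 lower (0.613%) and 46 higher (0.366%). In both fits the single normal array left took its spread from the other groups. Mest, Snrpn, Peg3, Eif2s3y and Cdhr1 were past the threshold in each of them. So were Peg10 (adjusted p = 0.00424 without replicate 1 and 0.0317 without replicate 2) and Impact (0.00214 and 0.0182), which missed it in the fit of all arrays. Grb10 passed without normal replicate 1 (adjusted p = 0.00417) and missed without normal replicate 2 (adjusted p = 0.0807).

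**Figure D4:**
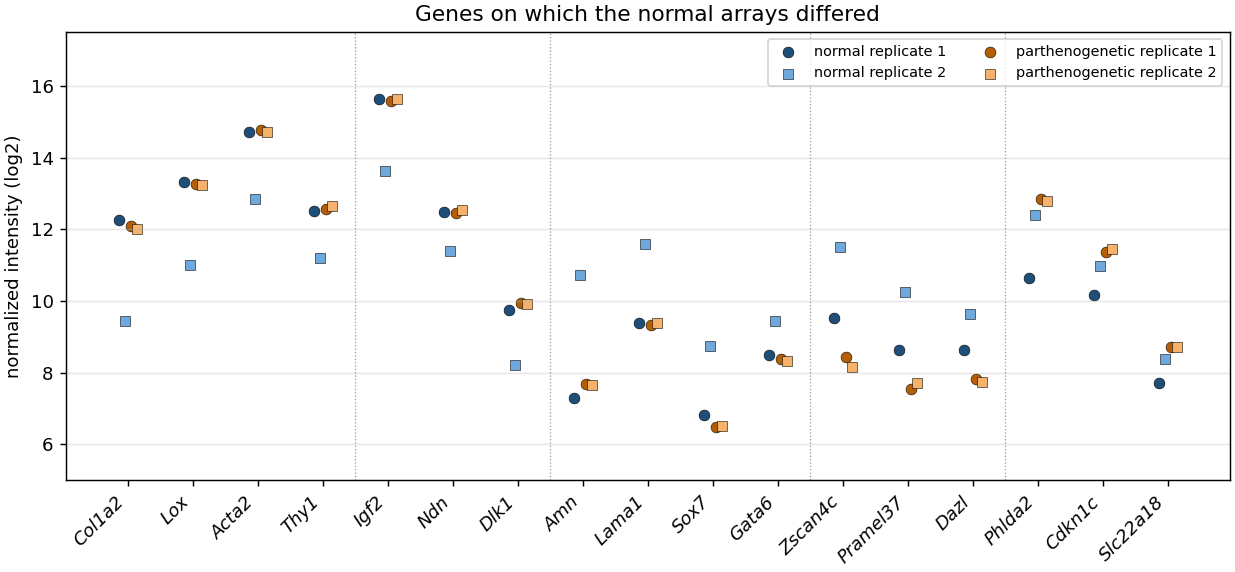
Log2 normalized intensity (vertical axis) on each of the 4 arrays for genes on which the normal arrays differed, in 5 sets from left to right: fibroblast genes, paternally expressed genes, endoderm genes, germ cell and early embryo genes, and maternally expressed genes of distal chromosome 7. In the fibroblast, paternally expressed and endoderm sets normal replicate 2 (light blue) is the array set apart. In the germ cell and early embryo set it is the highest, and normal replicate 1 (dark blue) also lies above the parthenogenetic arrays. In the last set normal replicate 1 is the array set apart.

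Genes that set normal replicate 2 apart from the other 3 arrays were of several kinds, and those named next were chosen after their values were seen. The matrix gene Col1a2 read 12.25 on normal replicate 1, 9.45 on normal replicate 2, and 12.09 and 12.02 on the parthenogenetic arrays. Thbs1, which encodes thrombospondin, read 10.44 and 7.41 against 10.47 and 10.49, and the collagen-binding integrin gene Itga11 read 9.52 and 6.45 against 9.60 and 9.49. Low on normal replicate 2, these genes were alike on the remaining arrays. Itga11 was not detected on normal replicate 2, so its value there is background. Some genes of primitive and visceral endoderm were high on normal replicate 2. Amn, of the cubilin receptor complex, read 7.30 and 10.72 against 7.70 and 7.67, and the laminin gene Lama1 read 9.40 and 11.60 against 9.33 and 9.40. The transcription factor gene Sox7 read 6.82 and 8.75 against 6.47 and 6.53. On the parthenogenetic arrays Sox7 was at the background limit, and it was not detected on replicate 1. The germ cell RNA-binding gene Dazl read 8.63 and 9.64 against 7.83 and 7.75, so that normal replicate 1 also stood above the parthenogenetic arrays. Other endoderm genes were nearly level between the normal arrays, such as the collagen IV genes Col4a1 at 11.50 and 11.75 and Col4a2 at 11.21 on each, and the laminin gene Lamb1 was slightly lower on replicate 2, at 9.32 and 9.14.

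The fibroblast list followed normal replicate 2. All 27 tested members were higher by group mean, where 4138 of all 8584 genes were. None passed the threshold in limma, and the median was 0.66. Against normal replicate 1 the median was 0.00 and against normal replicate 2 it was 1.39. Its brightest members were Acta2, smooth muscle actin, at 14.72 and 12.84 against 14.78 and 14.71, and Lgals1, galectin-1, at 14.62 and 13.57 against 14.82 and 14.70. Vim, the intermediate filament gene vimentin, read 13.68 and 12.52 against 13.84 and 13.90. Of the 27, 9 were above both normal arrays on both parthenogenetic arrays (33.3%), where 18% of all genes were.

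Hypoxia and glycolysis genes stood slightly above normal replicate 1 as well. Of 24 tested, 0 passed and 18 were above both normal arrays on both parthenogenetic arrays, where 18% of all genes were. The median was 0.64, 0.18 against normal replicate 1 and 1.04 against normal replicate 2. Tpi1, triose phosphate isomerase, read 14.92 and 14.13 against 15.20 and 15.09 (limma adjusted p = 0.435). The oxygen-sensing prolyl hydroxylase gene Egln1 read 8.08 and 6.20 against 8.57 and 8.56, and Adm, adrenomedullin, read 9.06 and 8.46 against 9.73 and 9.69 (limma adjusted p = 0.428 and 0.223). Egln1 and Car9, a further gene of this list, were not detected on normal replicate 2, where their values are background. Both entered the filter through the parthenogenetic arrays alone, so the filter itself favoured a higher value there for them. Both are among the 18. Fibroblast markers were also lower on normal replicate 2, and their part in the differences of the hypoxia and glycolysis genes was not tested.

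Germ cell genes were lower in parthenogenetic ES cells by group mean for 10 of 12 tested, where 4445 of all 8584 genes were, with 0 past the threshold. Their median was -0.52, -0.27 against normal replicate 1 and -0.86 against normal replicate 2, and 8 were below both normal arrays on both parthenogenetic arrays, where 18.7% of all genes were. Smc1b, a meiotic cohesin gene, was even within groups at 8.54 and 8.49 against 7.61 and 7.42 (limma adjusted p = 0.0538). Rhox9 and Rhox6, homeobox genes of an X-linked cluster, differed by -0.92 each, Rhox9 reading 9.02 and 8.90 against 7.93 and 8.15 and Rhox6 7.48 and 7.37 against 6.42 and 6.59 (limma adjusted p = 0.134 and 0.0828). For these 3 genes the gap was about as large against either normal array. Rhox6 was not detected on parthenogenetic replicate 1 and entered the filter through the normal arrays alone. The filter itself thus favoured a lower value for Rhox6, which is among the 8. Rhox5, a further Rhox gene and the brightest germ cell gene tested, had a parthenogenetic mean below normal replicate 2 and above normal replicate 1. Ddx4, an RNA helicase gene of the germ line, was not detected in normal ES cells and had a gap upward, at 6.49 and 6.40 against 6.89 and 7.03.

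Pluripotency genes showed small differences, mostly downward. The median was -0.07 over 16 core genes and -0.21 over 16 naive genes, with 0 past the threshold in limma. Esrrb, Tcl1 and Zfp42 are on both lists, so their counts are not separate. By group mean 14 core and 11 naive genes were lower, where 4445 of all 8584 genes were. Below both normal arrays on both parthenogenetic arrays were 5 core genes (31.3%) and 7 naive genes (43.8%), where 18.7% of all genes were. Pou5f1 read 13.70 and 14.04 against 13.89 and 13.74, Nanog 13.37 and 13.19 against 13.17 and 13.25, and Sox2 11.46 and 10.69 against 11.13 and 11.33. The groups overlapped for each of these 3 transcription factor genes. Of the naive genes, Tcl1, an AKT coactivator gene, had the widest difference, at 11.01 and 11.56 against 10.68 and 10.53 (limma adjusted p = 0.322). Among the 11 primed epiblast genes the median was 0.14. Lef1, a WNT pathway transcription factor gene, read 7.21 and 7.14 against 7.72 and 7.81 (limma adjusted p = 0.268), and Lefty1, a NODAL antagonist gene, read 11.59 and 11.98 against 12.21 and 12.29 (limma adjusted p = 0.381).

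Lineage markers outside endoderm had medians near 0. The 13 primitive endoderm genes had a median of -0.47, -0.03 against normal replicate 1 and -0.63 against normal replicate 2. Gata6, the transcription factor that specifies this lineage, read 8.49 and 9.46 against 8.38 and 8.33 (limma adjusted p = 0.471). The medians were 0.05 over 6 trophectoderm genes, 0.07 over 8 neural genes and 0.01 over 9 housekeeping genes. Genes of the methylation machinery showed small differences: the maintenance methyltransferase gene Dnmt1 read 11.55 and 11.94 against 11.62 and 11.63, and Trim28, which protects imprints in the early embryo, read 14.49 and 14.96 against 14.52 and 14.62. Among 16 genes of IGF and growth factor signalling the median was 0.26, 0.12 against normal replicate 1 and 0.49 against normal replicate 2. Igf1r, the receptor through which IGF2 signals, read 7.24 and 7.66 against 7.99 and 8.10 (limma adjusted p = 0.431). The median was 0.09 over 12 ERK feedback targets, 0.04 over 6 genes of X dosage, -0.15 over 6 X-linked partners of Y genes, -0.39 over 6 genes of early cleavage embryos and oocytes, and -0.09 over 12 genes of DNA methylation, with none past the threshold in limma.

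**Figure D5:**
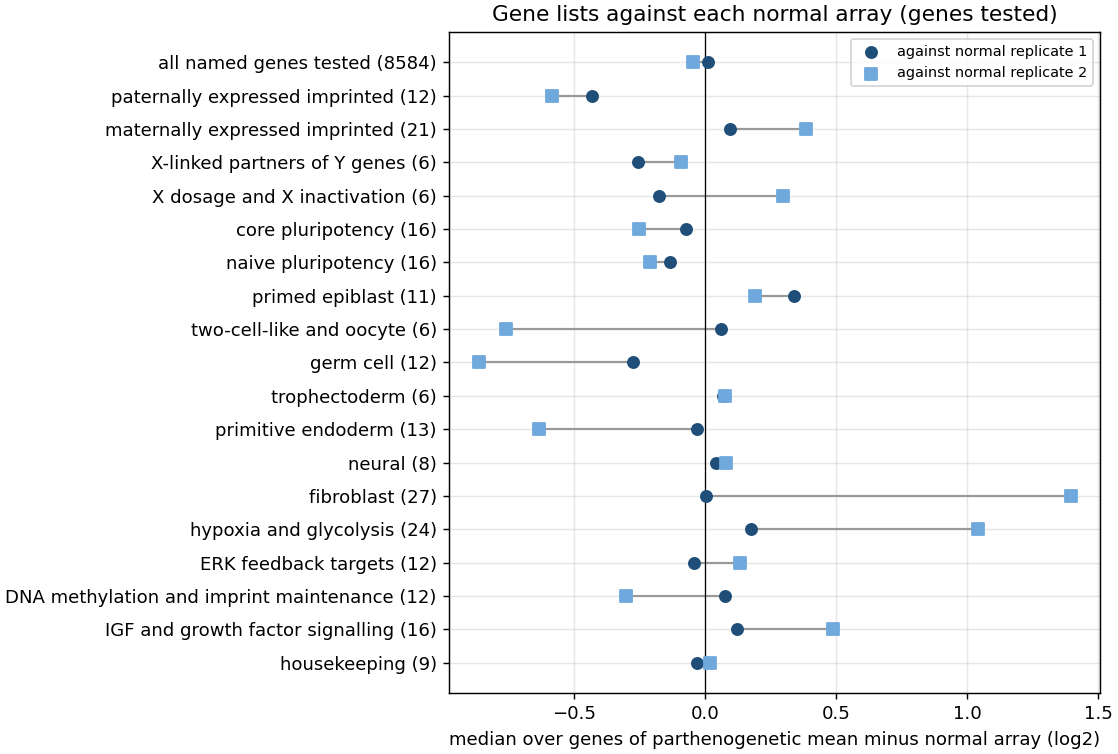
Median over the tested genes of each list (number in parentheses) of the parthenogenetic mean minus normal replicate 1 (dark circles) and minus normal replicate 2 (light squares), on a log2 horizontal axis. The paternally expressed list lies below 0 and the hypoxia list above 0 against either array, whereas the fibroblast list lies at 0.00 against replicate 1 and at 1.39 against replicate 2.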

How the data were processed

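Total RNA was amplified into biotin-labelled cRNA and read on bead arrays of Illumina, as the labels' protocols say. Per the file headers, the authors deposited a raw intensity (lowest 52.07 units) and a detection p-value for each probe. They also deposited a normalized log2 table of 12690 probes, whose tool is not given in the sources used here. All 8 arrays went together through neqc of limma 3.58.1 (R 4.3.3), which corrects background with controls inferred from detection p-values, normalizes by quantiles and takes log2 after an offset of 16. The probes tested were the 12561 detected (p-value under 0.05) on both arrays of either group, 854 of them with no gene name. Names came from the platform annotation, updated through RefSeq (GRCm38.p6), where 11953 of 11960 named probes matched. A linear model of 4 group means (4 residual, 2.80 prior degrees of freedom) gave moderated tests, with p-values Benjamini-Hochberg adjusted over all tested probes. The step was tested on simulated data with the same spread in all groups, so that test does not cover the wider spread of the normal arrays. A gene is its brightest probe by mean over 8 arrays. For "at least" folds, a probe not detected in a group took, on each of its arrays, its own value or that of the array's lowest detected probe, whichever was higher.

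Named genes were the 5 markers, genes past the threshold, the 10 widest gaps each way, and the brightest members of each list (up to 12 imprinted, otherwise up to 4). Other list members and genes named against 1 normal array were chosen after their values were seen. The members and lists were chosen with earlier results of these data known. Alternatives were other background corrections and filters, the authors' log2 table, other variance models, a replicate block and leaving out each array.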

Additional observations from a re-analysis of the deposited data

Results flagged for a closer look

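Mest, Snrpn and Peg3, which fell in parthenogenetic ES cells, had a signal above the parthenogenetic level on arrays outside the comparison, those of the parthenogenetic line labelled for Igf2 overexpression. Mest averaged 8.92 there against 6.32 on the parthenogenetic arrays, Snrpn 11.43 against 9.20, and Peg3 6.78 against 5.38, as log2 intensity. Mest read 8.95 and 8.89, Snrpn 11.44 and 11.42 and Peg3 6.75 and 6.80 on the arrays of that line, each between the parthenogenetic and the normal levels.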

How the results depend on the processing

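The count of 13 probes past the threshold was 8 in the authors' log2 table, 1 in the fit of both groups alone, and 0 with normalization and fit of these 4 arrays alone, where limma had 512 at an unadjusted p under 0.05. Leaving out 1 array at a time it ran from 3, without either parthenogenetic array, to 5200, without normal replicate 1. It stayed between 9 and 14 under other background corrections, other detection filters, a variance per group and a trended prior. With the replicate number as a block the count was 12, and Cdhr1 had an adjusted p of 0.0978. Deviations of same-numbered arrays correlated at -0.025 to 0.180 over pairs of groups, not all above 0.1, so the numbers were not taken to pair the samples. The count of 24 probes at least 2-fold from both normal arrays was 11 with no background correction, 11 with normexp and an offset of 50, and 8 in the authors' log2 table. Leaving out 1 array at a time, Dnmt3b ran from -0.29 (without normal replicate 1, adjusted p = 0.0375) to 0.44 (without normal replicate 2), and Rhox5 from -0.69 (without normal replicate 1, adjusted p = 0.00311) to 0.79 (without normal replicate 2). Over named genes and settings, 1729 values stayed on their side of the threshold, 30 of them with a changed sign but never past it, 86 newly passed and 24 no longer passed. Mest, Snrpn, Peg3 and Eif2s3y were past the threshold in 15, 18, 17 and 17 of 19 settings and Cdhr1 in 4, each with the same direction in all 19. The small number of arrays and, for dim probes, the background limit what can be called.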
